A study of Mus musculus with 4 samples.

Results

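Axon guidance ligands and receptors are cell-surface and secreted proteins first known for steering growing axons, and glia make many of them. The genes described here are those whose symbol begins with Sema, Plxn, Eph or Efn, Slit, Robo, Ntn, Ntng or Unc5 as the families are numbered, together with Nrp1, Nrp2 and Dcc. The pattern took 76 of the 55467 genes in the files. Of these, 71 encode guidance ligands or receptors and fall into 4 systems, with 31 genes of the semaphorin system, 22 of the ephrin system, 7 of the Slit system and 11 of the netrin system. The other 5 match the pattern by name and are not counted as guidance genes: Unc50 and Unc5cl, which are no netrin receptors, and 3 transcripts antisense to Plxna4.

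RNA was sequenced from cultured cortical astrocytes, star-shaped glia that support neurons, in 2 CD38 knockout (CD38 KO) and 2 wild-type (WT) libraries. CD38 is a surface enzyme that consumes NAD+, and the series asks what it does in astrocytes for synapse formation and later social memory. Both genotypes were grown alike: cortices of mouse pups aged 1 to 3 days were dissociated, kept 14 days in medium with 10% serum, shaken for 12 h to remove loose cells, replated and harvested 5 days later. The labels give neither the strain, the deleted exons, the sex nor whether replicates are separate animals, so p-values measure the spread between these libraries, which may be technical, and an effect of the missing Cd38 and one of strain cannot be told apart.

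Semaphorins act through plexins, and the secreted class 3 semaphorins mostly need a neuropilin as the binding part of the receptor. Ephrins are tethered to the membrane, so they signal to Eph receptor kinases on touching cells, and the ephrin-bearing cell can be signalled to in return. Slits are secreted repellents read by Robo receptors, while netrins attract through Dcc or neogenin and repel through Unc5 receptors. The netrin-Gs are held on the surface by a lipid anchor and bind netrin-G ligands rather than Dcc.

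The libraries carried the Cd38 levels their labels name. Cd38 (ENSMUSG00000029084, GRCm38 chromosome 5, 43868553 to 43912375) stood at 0.0222 FPKM in both CD38 KO libraries, against 3.13 and 3.45 FPKM in the WT libraries, where FPKM is the fragment count of a gene scaled to transcript length and to the library's total. Depth, recovered from the steps of low values, was about 29034000 and 29090000 fragments in CD38 KO and 26840000 and 28254000 in WT. Pearson's r across tested genes was 0.985 within CD38 KO, 0.990 within WT and 0.964 to 0.968 between genotypes, and genes are not independent replicates. Of 12 astrocyte markers 11 were at a mean of 1 FPKM or more, and the list summed to 2923 and 2957 FPKM in CD38 KO and to 3412 and 3308 FPKM in WT. Of these 11, limma called 2 higher (Aldh1l1 and Gja1) and 7 lower in CD38 KO, against 8.00% and 6.35% of all tested genes. Kcnj10, Aldoc and S100b were the lower ones of smallest p. Microglia and macrophage markers summed to 881 and 788 FPKM in CD38 KO, against 173 and 160 FPKM in WT. Of these, 16 of 16 tested were called higher, against 8.00% of all tested genes. None of the 18 was at 0 in all libraries. Among the called were Cx3cr1 and Tmem119, which like P2ry12 mark resting microglia. Cx3cr1 stood at 6.41 and 6.35 FPKM in CD38 KO, against 0.474 and 0.580 FPKM in WT. Tmem119 stood at 2.01 and 1.41 FPKM in CD38 KO, against 0.323 and 0.665 FPKM in WT. P2ry12 lay under a mean of 1 FPKM and was not tested. Its genotypes overlapped, at 0.528 and 0.606 FPKM in CD38 KO and 0.243 and 0.633 FPKM in WT.

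Few guidance genes were called different between the genotypes. With 2 libraries of each, a gene not called is not shown to be equal. The test was limma on log2(FPKM + 1) for each gene averaging 1 FPKM or above across libraries, and a gene was called where its Benjamini-Hochberg adjusted p over all 13064 tested genes was under 0.05. Of the 76 members 51 were tested, and 1 was called higher and 3 lower in CD38 KO, 7.84% of those tested, against 14.4% of all tested genes. The higher member was the co-receptor Nrp2, and the lower ones were the plexins Plxna2 and Plxnd1 and the netrin-G gene Ntng1. The background was 8.00% for higher calls and 6.35% for lower calls. The median log2 change of the 51 was -0.08, against 0.00 for all tested genes, with 16 members above 0 and 35 below. Both libraries of one genotype lay above both of the other in 29 of the 51 members, 10 with CD38 KO higher and 19 with it lower, where 59.9% of all tested genes did so, 30.4% higher and 29.5% lower. With an unadjusted p under 0.05 there were 17 members, 4 higher and 13 lower, where the background was 30.3% in either direction, 16.3% higher and 13.9% lower. The count of lower members was 1 without each library in turn and with no filter, and 6 with robust moderation.

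**Figure D1:**
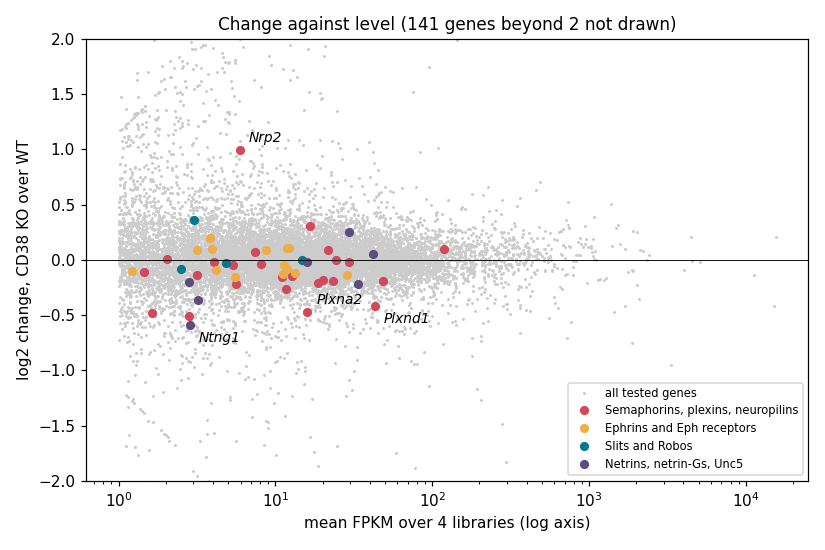
The limma log2 change of CD38 KO over WT, on log2(FPKM + 1), is plotted against mean FPKM on a log axis for all tested genes (grey) and for the guidance genes by system (colours). Nrp2 stands at 0.99 and Ntng1 at -0.59, and most other members lie near 0; 141 genes beyond 2 on the log2 scale are not drawn.

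Windows at the RefSeq starts of the 4 called genes are shown because they are the members whose transcripts changed. Each is the 250 bases before the RefSeq gene start on GRCm38.p6, read 5′ to 3′ on the gene's own strand, as the RefSeq table places that start, and capitals mark the GC box GGGCGG, searched on both strands together with CCAAT and TATAAA. The Nrp2 window lies at chr1:62703067-62703316 on the plus strand, the Plxna2 window at chr1:194619579-194619828 on the plus strand, the Plxnd1 window at chr6:115995006-115995255 on the minus strand and the Ntng1 window at chr3:110143473-110143722 on the minus strand. The gene bounds given here are those of GENCODE, whose outermost transcripts can start elsewhere: against them the Plxna2 and Ntng1 windows lie inside the gene, the Nrp2 window runs across its start and the Plxnd1 window lies just before it.
Nrp2: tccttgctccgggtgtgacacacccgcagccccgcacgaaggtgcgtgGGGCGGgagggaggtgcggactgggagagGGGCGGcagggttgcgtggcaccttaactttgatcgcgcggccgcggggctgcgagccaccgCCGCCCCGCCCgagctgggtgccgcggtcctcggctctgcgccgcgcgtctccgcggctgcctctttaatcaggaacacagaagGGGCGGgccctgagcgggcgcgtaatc
Plxna2: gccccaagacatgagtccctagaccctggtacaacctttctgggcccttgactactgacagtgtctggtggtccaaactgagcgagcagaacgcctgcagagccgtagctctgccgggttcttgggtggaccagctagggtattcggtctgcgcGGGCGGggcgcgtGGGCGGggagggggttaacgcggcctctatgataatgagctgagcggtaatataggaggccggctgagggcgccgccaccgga
Plxnd1: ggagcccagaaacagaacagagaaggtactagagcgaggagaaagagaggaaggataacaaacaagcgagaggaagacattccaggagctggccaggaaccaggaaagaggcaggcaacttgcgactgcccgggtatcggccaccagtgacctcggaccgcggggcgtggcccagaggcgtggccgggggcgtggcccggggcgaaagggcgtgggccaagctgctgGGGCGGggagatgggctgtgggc
Ntng1: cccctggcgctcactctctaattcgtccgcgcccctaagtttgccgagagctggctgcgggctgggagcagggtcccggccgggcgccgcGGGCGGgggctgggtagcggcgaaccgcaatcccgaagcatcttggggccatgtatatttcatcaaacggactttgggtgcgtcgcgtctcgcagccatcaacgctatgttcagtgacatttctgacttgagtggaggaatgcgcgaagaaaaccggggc

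All 4 windows held the GC box, which 32.7% of 32841 such mouse windows hold. Nrp2 had 5 copies, 2 of them overlapping on the minus strand, Plxna2 had 2, and Plxnd1 and Ntng1 had 1 each. None held CCAAT or TATAAA, which 33.9% and 12.4% of windows hold. CpG pairs numbered 32 in Nrp2, 18 in Plxna2, 16 in Plxnd1 and 25 in Ntng1, against a median of 6 over all windows. Of all windows, 95.4% had fewer CpG pairs than Nrp2, 89.3% fewer than Ntng1, 78.3% fewer than Plxna2 and 74.6% fewer than Plxnd1. These shares are over all windows, whether or not the gene was expressed here. The shares among tested genes and among uncalled members were not computed, so neither trait is shown to be particular to the called genes. A match of letters says nothing of binding. RefSeq windows were at hand for 63 of the 76 members.

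Neuropilin 2 was the member that rose. Nrp2 (ENSMUSG00000025969, chromosome 1, 62703285 to 62818695) binds class 3 semaphorins such as Sema3F and also VEGF-C. It stood at 8.65 and 7.80 FPKM in CD38 KO, against 3.64 and 3.61 FPKM in WT. The WT libraries were nearly equal and both CD38 KO libraries lay far above them. The mean was 8.23 ± 0.607 FPKM in CD38 KO and 3.63 ± 0.0247 FPKM in WT (SD, n = 2 each), 2.27-fold higher, with a log2 change of 0.99 (SE 0.08, limma adjusted p = 0.00173). It stayed called in all 14 other fits, with log2 changes of 0.93 to 1.16 and adjusted p of 0.000883 to 0.0319. The microglia and macrophage sum was higher beside it, 881 and 788 FPKM in CD38 KO against 173 and 160 FPKM in WT, and its part in the Nrp2 result was not tested. In bulk RNA more cells of a type and more RNA per cell cannot be told apart.

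Its relative Nrp1, which binds Sema3A and VEGF-A, was the more abundant neuropilin and gave no call. Nrp1 stood at 28.3 and 30.4 FPKM in CD38 KO, against 30.5 and 29.0 FPKM in WT, and the genotypes overlapped. Its log2 change was -0.02 with a 95% interval of -0.17 to 0.13 (limma adjusted p = 0.868). The Nrp2 level as a ratio to the Nrp1 level within each library was 0.306 and 0.256 in CD38 KO, against 0.120 and 0.125 in WT. Nrp1 was thus the higher of the pair per length in every library, by a smaller margin in CD38 KO.

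Plexins were the most abundant guidance receptors, and 2 of 7 tested plexins were called lower, against 6.35% of all tested genes. Plxna2 (ENSMUSG00000026640, chromosome 1, 194618218 to 194816869), a signalling receptor for class 3 and class 6 semaphorins, stood at 13.3 and 13.2 FPKM in CD38 KO, against 18.6 and 18.9 FPKM in WT. The libraries of each genotype lay close together, and the genotypes did not overlap. It averaged 13.2 ± 0.0897 FPKM in CD38 KO and 18.7 ± 0.198 FPKM in WT (SD, n = 2 each), with a log2 change of -0.47 (SE 0.05, limma adjusted p = 0.00494). Without CD38 KO 1 the call was lost at adjusted p = 0.0520, with the log2 change at -0.48.

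Plxnd1 (ENSMUSG00000030123, chromosome 6, 115954811 to 115995005), the receptor that binds Sema3E without a neuropilin, was the more abundant of the pair that fell. It stood at 38.6 and 34.8 FPKM in CD38 KO, against 50.4 and 48.5 FPKM in WT. Every CD38 KO value lay below every WT value, by a gap larger than the spread within either genotype. The log2 change was -0.42 (SE 0.06, limma adjusted p = 0.0120), with the CD38 KO mean at 0.743 times the WT mean. The call was lost without CD38 KO 2 (adjusted p = 0.0642), without WT 1 (0.0685), without WT 2 (0.0644) and with no filter (0.0749). Beside these falls, 7 of 11 tested astrocyte markers were called lower and 2 higher, against 6.35% and 8.00% of all tested genes. The microglia sum was higher, and the part of either list was not tested.

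The other plexins gave no call. Plxnb2, a receptor for class 4 semaphorins, was the highest of all members at 126 and 120 FPKM in CD38 KO, against 116 and 114 FPKM in WT, and ranked 675 by mean among the 13064 tested genes. Plxnb1, which binds Sema4D, stood at 45.6 and 44.3 FPKM in CD38 KO, against 50.5 and 52.4 FPKM in WT. These moved in opposite senses without overlap, but Plxnb1 missed the threshold (log2 change -0.19, limma adjusted p = 0.0537, range over its alternatives 0.0477 to 0.214) and so did Plxnb2 (0.10, adjusted p = 0.211). Plxna3 stood at 10.3 and 10.8 FPKM in CD38 KO, against 12.4 and 13.4 FPKM in WT, with adjusted p = 0.0632. Plxna1 overlapped, at 26.0 and 18.9 FPKM in CD38 KO and 21.1 and 20.4 FPKM in WT, the CD38 KO libraries lying on either side of WT. Plxnc1, the receptor of Sema7A, overlapped too at 2.54 to 3.63 FPKM.

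**Figure D2:**
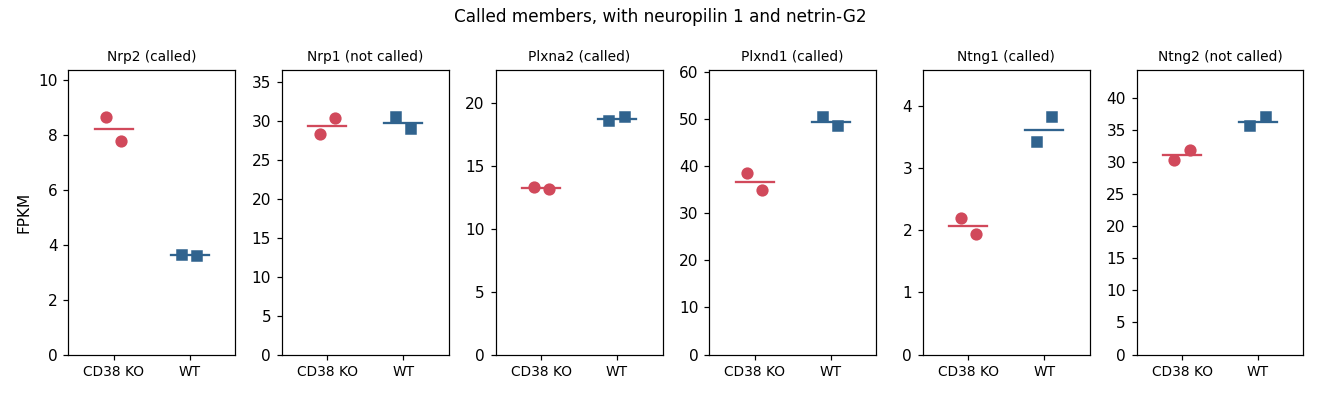
FPKM in each library (points) and group means (lines) for the 4 called genes and for Nrp1 and Ntng2, with CD38 KO left of WT in each panel and each axis starting at 0. Nrp2 is higher in both CD38 KO libraries, Plxna2, Plxnd1 and Ntng1 are lower, and Nrp1 overlaps.

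Of the semaphorin ligands, 16 of 20 were tested and 0 were called, where limma had 1 higher and 5 lower before adjustment at 0.05, against 16.3% and 13.9% of all tested genes, and of these ligands the alternative fits called Sema3a and Sema4g. The secreted ligand Sema3f, which binds Nrp2, had the highest mean over the 4 libraries, with Sema6a above it in WT 1, at 23.6 and 24.8 FPKM in CD38 KO against 23.0 and 25.6 FPKM in WT. The genotypes overlapped while the receptor differed, and the Sema3f log2 change of 0.00 had a 95% interval of -0.18 to 0.17. Sema3c and Sema3b, also secreted, were the next class 3 ligands, at 19.2 and 18.4 FPKM for Sema3c in CD38 KO against 20.3 and 22.5 FPKM in WT. Sema3b stood at 17.7 and 16.9 FPKM in CD38 KO, against 20.9 and 19.4 FPKM in WT. Both were lower without overlap and neither was called (adjusted p = 0.152 and 0.0861 in limma).

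Sema3a, the founding repellent of the class and a ligand of Nrp1, was among the low ligands. It stood at 1.35 and 1.06 FPKM in CD38 KO, against 1.99 and 2.15 FPKM in WT (log2 change -0.48, limma adjusted p = 0.0672). The genotypes did not overlap, and the gene was called with quantile normalization and with no trend. The transmembrane Sema6a, which binds Plxna2 and Plxna4, stood at 21.2 and 22.1 FPKM in CD38 KO, against 25.5 and 24.3 FPKM in WT, and was not called (adjusted p = 0.0815). The only semaphorin above WT at an unadjusted p under 0.05 was the transmembrane Sema4g, at 19.1 and 17.9 FPKM in CD38 KO against 13.7 and 15.8 FPKM in WT (log2 change 0.31, adjusted p = 0.0658). Sema4d, the ligand of Plxnb1, stood at 7.73 and 7.45 FPKM in CD38 KO and 7.08 and 7.22 FPKM in WT. Sema6c had the widest interval of the tested members, at 1.34 and 3.01 FPKM in CD38 KO and 2.72 and 4.12 FPKM in WT, and its interval ran from -1.22 to 0.20 on the log2 scale. The remaining tested ligands were Sema4a, Sema4b, Sema4c, Sema5a, Sema5b, Sema6b, Sema6d and Sema7a, with limma log2 changes of -0.22 to 0.01.

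**Figure D3:**
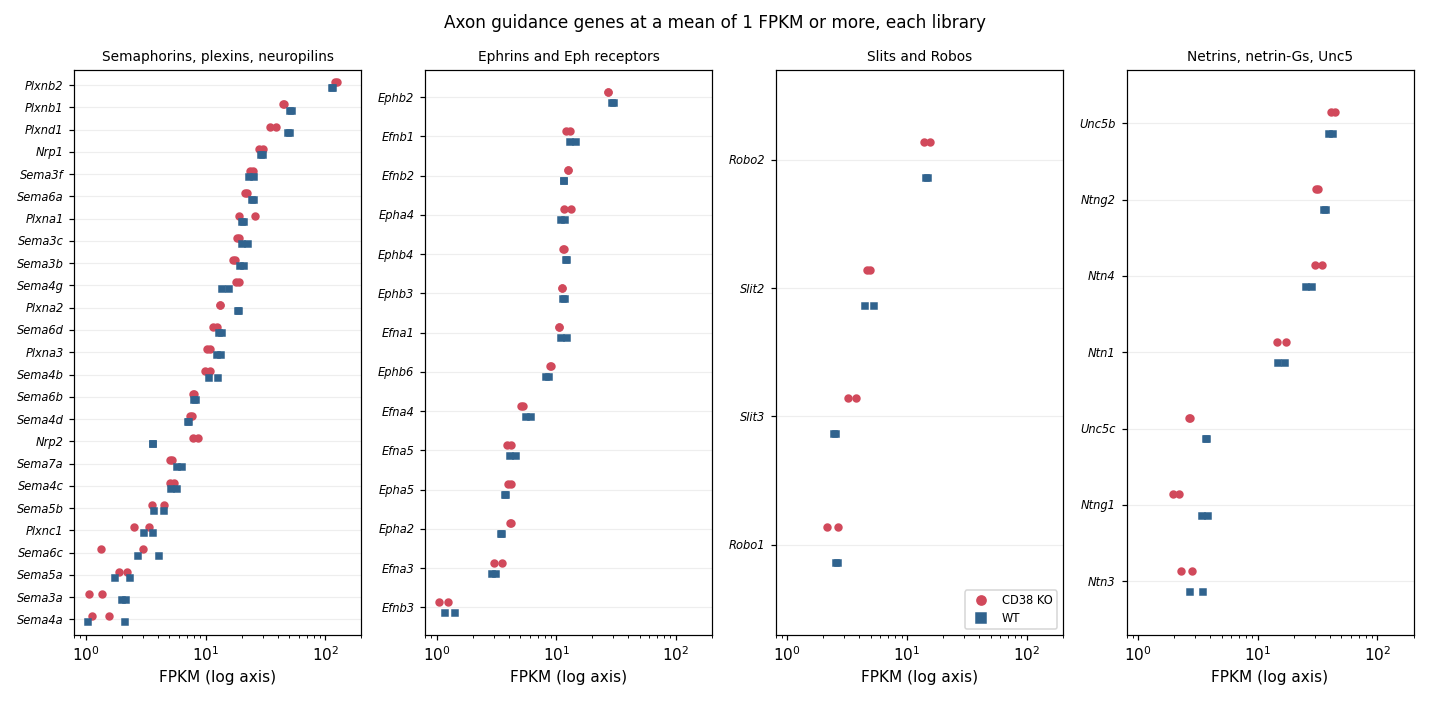
FPKM on a log axis for the 50 tested guidance genes in each library, by system and ordered by mean, with CD38 KO (circles) above WT (squares) in each row. Plxnb2 leads at 114 to 126 FPKM, and in most rows the genotypes overlap or lie close.

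In a list of 22 semaphorin and plexin partners, 20 were tested, 0 were called higher and 5 lower, where 8.00% of all tested genes were higher and 6.35% lower. The list's median log2 change was -0.08, against 0.00 for all tested genes. The lower ones included Dpysl4, Dpysl5 and Dpysl3, cytosolic CRMP-family proteins that act in semaphorin signalling. The family did not share this direction. Dpysl2 overlapped (log2 change 0.01, limma adjusted p = 0.920), and Crmp1 was higher without overlap but not called (0.34, adjusted p = 0.229). Dpysl4 stood at 4.94 and 3.82 FPKM in CD38 KO, against 8.34 and 8.73 FPKM in WT (log2 change -0.83, limma adjusted p = 0.00916). Farp1 and Rnd3 were the other lower partners. CRMPs are best known from neurons, and of 6 tested neuron markers Stmn2 was higher, at 54.8 and 56.1 FPKM in CD38 KO against 30.7 and 28.8 FPKM in WT, and Gad1 lower, at 46.1 and 41.7 FPKM in CD38 KO against 71.4 and 81.5 FPKM in WT. The neuron list summed to 138 and 141 FPKM in CD38 KO and 140 and 151 FPKM in WT. This sum joins the higher Stmn2 and the lower Gad1, so near-equal sums do not show equal neuron content. Rbfox3, Snap25, Syt1, Nefl, Slc17a7 and Dcx lay under 1 FPKM in every library and were not tested. Beside the lower partners, 7 of 11 astrocyte markers were lower and 2 higher. Lower too were 2 of 7 oligodendrocyte lineage markers (Pdgfra and Olig2), while 16 of 16 microglia markers were higher. The part of these lists was not tested.

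No member of the ephrin system was called of 14 tested, where 14.4% of all tested genes were called. The 14 had narrow intervals. On the log2(FPKM + 1) scale each 95% interval lay within a 1.5-fold change, where 82.9% of all tested genes did, and since 1 is added this limit is wider in FPKM for low genes such as Efnb3. Before adjustment limma had 0 members higher and 1 lower at 0.05, Ephb2, against 16.3% and 13.9% of all tested genes. The alternative fits called 0 members in either direction. Ephb2, a kinase receptor for the B ephrins, was the most abundant of the system, at 27.1 and 27.0 FPKM in CD38 KO against 30.1 and 29.5 FPKM in WT. Its genotypes did not overlap, with a log2 change of -0.14 (95% interval -0.26 to -0.02, adjusted p = 0.123). The ligand Efnb1 stood at 13.1 and 12.2 FPKM in CD38 KO and 14.7 and 12.97 FPKM in WT, with overlap. Its relative Efnb2 stood at 12.6 and 12.6 FPKM in CD38 KO, against 11.6 and 11.7 FPKM in WT, without overlap (log2 change 0.10, adjusted p = 0.301). Epha4, a receptor that binds both classes of ephrin, stood at 13.2 and 11.5 FPKM in CD38 KO and 11.01 and 11.8 FPKM in WT.

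These 4 were followed by Ephb4, Ephb3, Efna1, Ephb6, Efna4, Efna5, Epha5, Epha2, Efna3 and Efnb3, with mean levels of 11.9 to 1.22 FPKM. From Efnb1 to Efna1 the neighbours in that order lay within 13.2 to 11.1 FPKM by mean and their libraries overlapped, so their order is not fixed by these data. Summed per library, B-class Eph receptors held 59.5 and 59.8 FPKM in CD38 KO and 62.8 and 62.2 FPKM in WT, against A-class sums of 22.0 and 20.4 FPKM in CD38 KO and 18.8 and 19.7 FPKM in WT. B-class receptors held the larger sum in every library. Of 20 Eph and ephrin signalling partners 16 were tested, 0 were higher and 2 lower, against 8.00% and 6.35% of all tested genes, with a median of -0.06. These were Pdzrn3, a ubiquitin ligase with PDZ domains, at 30.4 and 27.3 FPKM in CD38 KO against 36.4 and 38.5 FPKM in WT (log2 change -0.37, limma adjusted p = 0.0241), and Inppl1, an inositol phosphatase, with a log2 change of -0.31 (adjusted p = 0.0478).

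The Slit system gave no call among its 4 tested members, where 14.4% of all tested genes were called. Slit2 (ENSMUSG00000031558, chromosome 5, 47983138 to 48307733) is 4.07 Mb from Cd38 and the only member within 10 Mb of it. Slit2 stood at 4.64 and 4.87 FPKM in CD38 KO and 4.48 and 5.31 FPKM in WT. The CD38 KO libraries lay between those of WT, with a log2 change of -0.03 (95% interval -0.28 to 0.22, limma adjusted p = 0.871). Slit3 stood at 3.22 and 3.78 FPKM in CD38 KO, against 2.56 and 2.45 FPKM in WT, and was not called despite lying apart (log2 change 0.36, 95% interval 0.09 to 0.63, adjusted p = 0.0874). Before adjustment it was the 1 higher member of the system at 0.05, with 0 lower, against 16.3% and 13.9% of all tested genes.

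The main Slit receptor of the cultures was Robo2, at 15.5 and 13.9 FPKM in CD38 KO and 14.5 and 14.8 FPKM in WT. Robo1 stood at 2.16 and 2.67 FPKM in CD38 KO and 2.63 and 2.57 FPKM in WT. For both receptors the CD38 KO libraries lay on either side of WT, and the 95% intervals were -0.17 to 0.18 for Robo2 and -0.38 to 0.22 for Robo1. Of 18 partners 17 were tested, 3 were higher and 0 lower, against 8.00% and 6.35% of all tested genes, with a median of 0.02. Evl stood at 20.4 and 22.1 FPKM in CD38 KO, against 15.3 and 15.2 FPKM in WT (log2 change 0.45, limma adjusted p = 0.00843), and its relative Vasp at 35.3 and 32.1 FPKM in CD38 KO, against 25.1 and 26.8 FPKM in WT (0.36, adjusted p = 0.0220). Both belong to the Ena/VASP proteins, which extend actin filaments and are present in blood cells too. The third was the surface proteoglycan Sdc1 (0.33, adjusted p = 0.0362). The microglia sum of 881 and 788 FPKM in CD38 KO against 173 and 160 FPKM in WT moved with them, and its part was not tested.

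**Figure D4:**
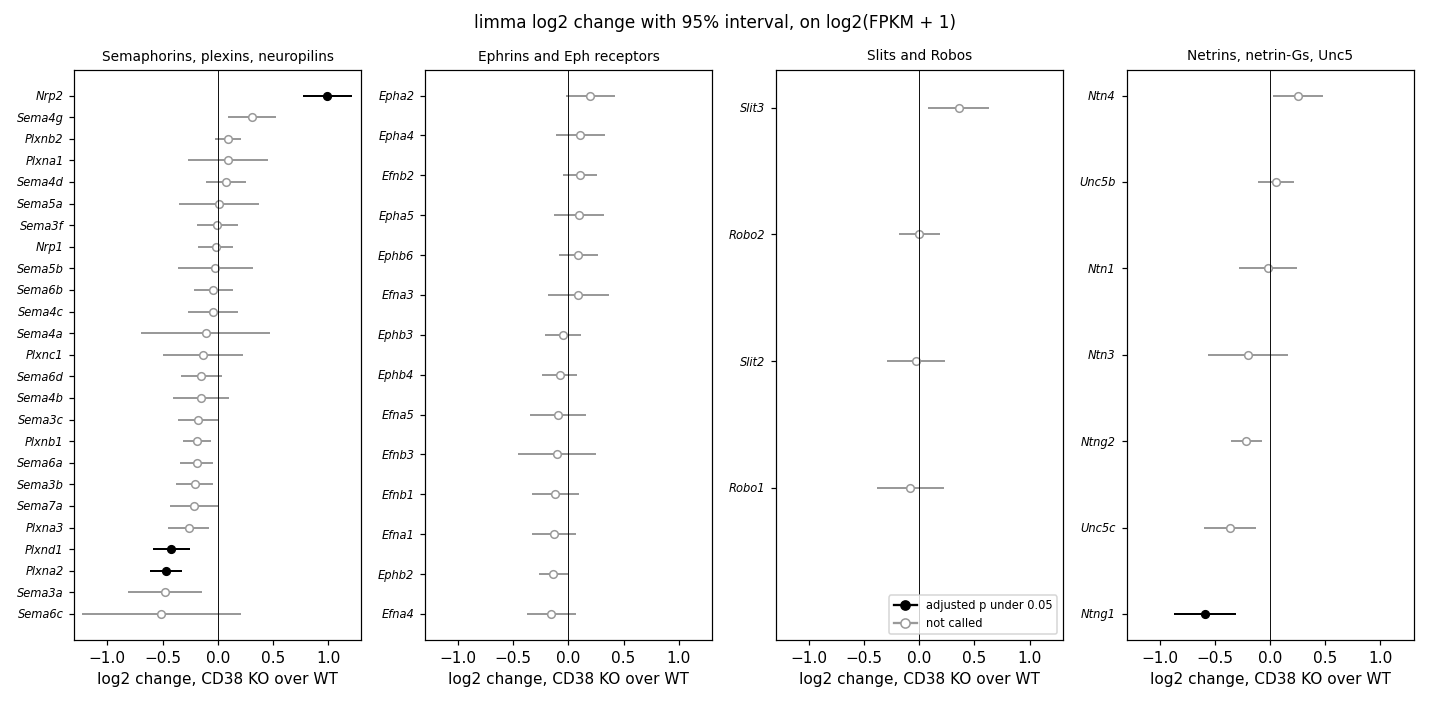
The limma log2 change of CD38 KO over WT with its 95% interval for the 50 tested guidance genes by system, filled where the adjusted p is under 0.05. Nrp2 alone is called above 0, and Plxna2, Plxnd1 and Ntng1 are called below 0. The 14 ephrin system intervals all lie within a 1.5-fold change on this scale, reaching -0.44 for Efnb3 and 0.41 for Epha2.

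In the netrin system 1 of 7 tested members was called, against 14.4% of all tested genes. This was the netrin-G gene Ntng1, called lower. Ntng1 (ENSMUSG00000059857, chromosome 3, 109780040 to 110144011) encodes the lipid-anchored partner of the netrin-G ligand Lrrc4c. It stood at 2.196 and 1.95 FPKM in CD38 KO, against 3.42 and 3.82 FPKM in WT. The genotypes did not overlap, with means of 2.07 ± 0.175 FPKM in CD38 KO and 3.62 ± 0.284 FPKM in WT (SD, n = 2 each) and a log2 change of -0.59 (SE 0.11, limma adjusted p = 0.0227). The call rested on each library: it was lost without CD38 KO 1 (adjusted p = 0.0894), CD38 KO 2 (0.108), WT 1 (0.0699) or WT 2 (0.126), with no filter (0.103) and with a replicate block (0.0686). Lrrc4c, picked for its binding after its values were seen, stood at 1.21 and 1.47 FPKM in CD38 KO and 1.64 and 1.83 FPKM in WT, and was not called (adjusted p = 0.309).

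Ntng2 was the more abundant netrin-G and was not called. It stood at 30.4 and 31.9 FPKM in CD38 KO, against 35.6 and 37.0 FPKM in WT, without overlap (log2 change -0.21, limma adjusted p = 0.0509, range over its alternatives 0.0452 to 0.209). It overlaps 6530402F18Rik on the same strand, a gene with a mean of 7.82 FPKM, so fragments could have been shared between them. Ntng1 as a ratio to Ntng2 within each library was 0.0722 and 0.0611 in CD38 KO, against 0.0962 and 0.103 in WT. Lrrc4, the ligand that Ntng2 binds, was also picked after its values were seen and stood at 8.57 and 8.32 FPKM in CD38 KO and 8.33 and 8.24 FPKM in WT.

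The secreted netrins gave no call. Ntn4, a netrin of basement membranes, stood at 30.1 and 34.3 FPKM in CD38 KO, against 28.5 and 25.3 FPKM in WT (log2 change 0.25, limma adjusted p = 0.118), and was called only with a crossed replicate block (adjusted p = 0.0323). Ntn1, the classical guidance netrin, stood at 14.4 and 17.1 FPKM in CD38 KO and 16.9 and 14.9 FPKM in WT. Ntn1 overlapped fully, and Ntn3 overlapped as well at 2.28 to 3.47 FPKM, a gene that shares its place with Tbc1d24 on the same strand. Unc5b, a repulsive netrin receptor, was the highest of the system at 41.0 and 44.1 FPKM in CD38 KO and 42.5 and 39.3 FPKM in WT. Its relative Unc5c stood at 2.71 and 2.67 FPKM in CD38 KO, against 3.73 and 3.76 FPKM in WT, with tight libraries but no call (log2 change -0.36, adjusted p = 0.0556). Of the rows matched by name, Unc50 was tested and overlapped, at 37.4 and 40.2 FPKM in CD38 KO and 40.6 and 39.6 FPKM in WT.

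Dcc, the attractive netrin receptor of axons, was close to absent, at no more than 0.0171 FPKM in any library. Its relative Neo1, neogenin, was present and lower, at 40.6 and 39.6 FPKM in CD38 KO against 52.2 and 52.0 FPKM in WT (log2 change -0.37, SE 0.04, limma adjusted p = 0.00563). Neo1 belongs to the list of 19 netrin and netrin-G partners, of which 16 were tested, 0 were higher and 3 lower, against 8.00% and 6.35% of all tested genes, with a median of -0.04. Of 11 tested astrocyte markers 7 were lower and 2 higher beside them, and the microglia sum was higher. The part of either list was not tested. Draxin, a secreted antagonist of netrin, was also lower, at 3.63 and 3.18 FPKM in CD38 KO against 6.31 and 6.12 FPKM in WT (log2 change -0.71, limma adjusted p = 0.00690).

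Below a mean of 1 FPKM were 25 members, 21 of them guidance genes, and these were not tested in the main comparison. With no filter 24 of them could be fitted and 0 were called. The following were chosen after their values were seen. Sema3e, the ligand of Plxnd1, stood at 0.656 and 0.766 FPKM in CD38 KO, against 0.334 and 0.291 FPKM in WT (adjusted p = 0.0908 with no filter), while Plxnd1 was lower. Sema3d lay the other way at 0.0620 and 0.0728 FPKM in CD38 KO, against 0.170 and 0.167 FPKM in WT. Sema3a, Sema3c, Sema3d and Sema3e all lie on chromosome 5, between 26.1 and 31.3 Mb from Cd38, and of these Sema3e had the higher mean in CD38 KO and the others the lower. Ephb1 stood at 0.770 and 1.16 FPKM in CD38 KO, against 0.419 and 0.493 FPKM in WT.

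Robo4, the Robo receptor known from endothelial cells, stood at 0.0072 and 0.0144 FPKM in CD38 KO, against 0.139 and 0.193 FPKM in WT. On its longest coding transcript these levels match 1 and 2 fragments in CD38 KO and about 18 and 26 in WT, a depth-corrected ratio of 0.0646 (95% exact interval 0.0128 to 0.202, counting error only). If the WT fragments came from the shortest coding transcript they would number about 11 and 17, with a ratio of 0.102 (0.0198 to 0.329). The 10 endothelial markers, of which 1, Egfl7, was tested and not called, summed to 5.85 and 5.15 FPKM in CD38 KO and to 4.98 and 4.51 FPKM in WT, and they did not share a direction. Pecam1 stood at 1.39 and 1.10 FPKM in CD38 KO, against 0.542 and 0.214 FPKM in WT, while Kdr stood at 0.0419 and 0.0896 FPKM in CD38 KO, against 0.181 and 0.160 FPKM in WT, and their part in the Robo4 values was not tested. These compare libraries, not conditions, and with no filter limma did not call Robo4 (adjusted p = 0.0859).

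The antisense transcript Plxna4os1 stood at 0.267 and 0.456 FPKM in CD38 KO, against 0.0617 and 0.0783 FPKM in WT. These levels match 14 and 24 fragments in CD38 KO and 3 and 4 in WT, a ratio of 5.15 (95% exact interval 2.27 to 13.7, counting error only). The interval pools the libraries of each genotype, so it compares libraries, not conditions. With no filter limma did not call Plxna4os1 (adjusted p = 0.147). Plxna4 itself stood at 0.837 and 0.911 FPKM in CD38 KO, against 0.645 and 0.576 FPKM in WT. The kit was stranded, but whether counting used strand is not given in the sources used here, so reads of the sense and antisense gene cannot be told apart. Plxna4os3 was listed at 0 in all 4 libraries.

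**Figure D5:**
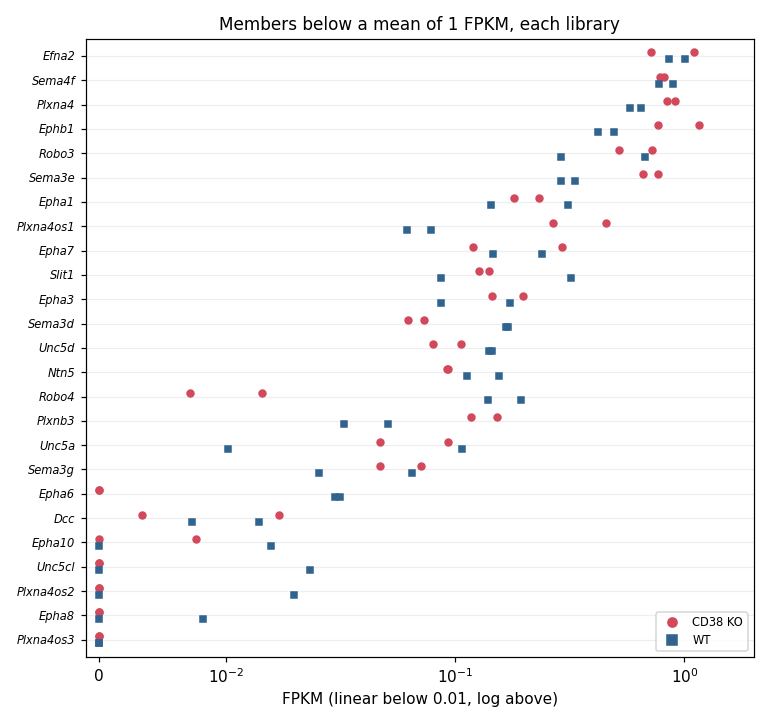
FPKM in each library for the 25 members below a mean of 1 FPKM, on an axis that is linear below 0.01 and logarithmic above, with CD38 KO (circles) above WT (squares). Robo4 lies lower and Plxna4os1 and Sema3e lie higher in both CD38 KO libraries, and most other rows overlap.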

How the data were processed

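RNA was measured in 2 CD38 KO and 2 WT libraries, grouped by their titles. Tools named in the submitters' processing notes are Cufflinks 2.2.1, STAR 2.7.0f and bcl2fastq 2.17, with GRCm38 as the build, and each deposited file holds 1 FPKM column, per the file headers. What annotation and normalization the authors used is not stated in the labels. GENCODE M21 (GRCm38) gave positions for 55226 of 55467 IDs, all 76 members among them.

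Genes averaging under 1 FPKM were left out, and Cd38, which passed, was also kept under the filter at 5 FPKM. A genotype model of log2(FPKM + 1) was fitted by limma 3.58.1 (R 4.3.3) with trended empirical Bayes variances, and p-values were Benjamini-Hochberg adjusted at 0.05 over 13064 genes. The 95% intervals are from the same moderated fit. Fold changes on this scale understate those of low genes, and folds in FPKM are ratios of group means. The fit was also run on simulated data in which the noise of each gene and library was independent. Such data cannot show how often the fit errs where effects are common to a whole library, and no result here rests on them. Tables and plots were made in Python 3.11.15 (pandas 2.3.3, matplotlib 3.10.9, numpy 2.4.6).

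Depth was fitted on 17493 genes with a single transcript over 600 bases. Among values under 10 fragments, whole numbers were met to within 0.1 by 91.8% to 92.4%, after taking 168 to 171 bases off the length. Intervals on fragments cover counting error only.

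The members and lists were chosen with earlier results of these data known. Values were given for called members, the 4 highest of each system, any member at a mean of 1 FPKM or more with a 2-fold ratio, and at most 3 called genes of each list; others were described after their values were seen. The 7 marker lists and 4 partner lists were described by counts. The values of 1 called partner gene are not reported here. Oligodendrocyte lineage markers had 0 of 7 tested members higher and 2 lower (Pdgfra, Olig2), and fibroblast, meningeal and mural markers 0 of 7 called. Ependymal markers had 3 of 5 higher and 1 lower, with Tmem212 at 0 in all libraries. Of all tested genes, 8.00% were called higher and 6.35% lower.

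Alternatives were 0.1 or 0.5 FPKM added before the log, quantile normalization, no filter, a replicate block, robust moderation, no trend, a filter at 5 FPKM, median-of-ratios scaling and each library left out in turn. A crossed replicate block and a count without the 5 rows matched by name were added after seeing the data.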

Additional observations from a re-analysis of the deposited data

How the results depend on the processing

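Nrp2 kept its call and direction in all 14 other fits, and Cd38 did too, with adjusted p of at most 0.0154. The ephrin and Slit systems had 0 calls in every fit. With no filter 430 genes were higher and 312 lower, against 1045 and 830, and 1 guidance member was lower, against 3. Quantile normalization and no trend each gave 5 lower members, adding Sema3a and Unc5c, and robust moderation gave 6, adding Ntng2, Plxnb1 and Unc5c. The cause of these shifts was not tested. Without 1 library 344 to 553 genes were higher and 265 to 346 lower, and 1 member was higher and 1 lower in each such fit, the lower one being Plxnd1 without CD38 KO 1 and Plxna2 otherwise; fewer samples then enter the fit, which gives the lone library the spread of the other genotype.

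Of 15 uncalled members followed singly under these settings, 5 changed sign. Without 1 library the log2 change ranged from -0.13 to 0.10 for Ntn1, -0.0701 to 0.0324 for Nrp1, -0.13 to 0.0707 for Slit2, -0.19 to 0.0291 for Robo1 and -0.0682 to 0.0713 for Robo2, and Robo2 was at -0.0171 with quantile normalization and -0.0037 with median-of-ratios scaling, against 0.0015. Replicate numbers pair the libraries by number only: the replicate differences of the genotypes correlated at -0.161 across genes. The replicate block gave 610 genes higher and 427 lower, with 1 member higher and 2 lower, Ntng1 being lost (adjusted p = 0.0686). The crossed block gave 1102 higher and 859 lower, with 3 members higher, Nrp2, Ntn4 and Sema4g, and 3 lower. Depth limits the members below 1 FPKM, where single fragments move the values.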
